A study of Mus musculus with 36 samples.

Results

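The genes described here are 31 genes of the oligodendrocyte lineage and of myelin, out of 24421 genes counted in each tissue. They were taken from a fixed list of names, which was chosen with earlier results of these data known. Of them, 6 are known from oligodendrocyte precursors and early lineage cells (Pdgfra, Cspg4, Gpr17, Bcas1, Olig1 and Olig2). The other 25 are grouped here as genes of mature, myelin-forming oligodendrocytes, although some, such as Enpp6, Sox10 and Cntn2, are not confined to them. All 31 passed the filter on low counts in both tissues, at more than 1 CPM (counts scaled to the size of the library) in at least 6 of 18 libraries.

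Poly(A) RNA of the cerebellum and of the hippocampus was sequenced from the same 18 adult C57Bl/6 mice, with 3 males and 3 females of each genotype. Control mice carried Pogzfl/fl, in which both floxed copies of Pogz stay intact because no Cre is present. Heterozygous mutants (cKO+/-) were NesCre/+; Pogzfl/+ and homozygous mutants (cKO-/-) were NesCre/+; Pogzfl/fl, so that a Cre recombinase under the Nestin promoter left them 1 and 0 intact alleles in the central and peripheral nervous system. All mutants carried the Cre transgene and no control did, so its presence and the loss of Pogz cannot be told apart. Pogz encodes a nuclear zinc finger protein that binds the heterochromatin protein HP1. The gene tables held 21421850 to 32544929 counts for a cerebellar and 17609321 to 45544188 for a hippocampal library. Pogz itself fell with each allele lost in both tissues. In the cerebellum it was at 99.6 CPM ± 15.2 (SD, n = 6) in control, 77.7 ± 5.78 (n = 6) in cKO+/- and 65.8 ± 7.34 (n = 6) in cKO-/- mice. In the hippocampus it was at 90.9 ± 1.24 (n = 6), 76.4 ± 2.27 (n = 6) and 61.7 ± 3.55 (n = 5). The change per allele lost was -0.30 on the log2 scale in the cerebellum (adjusted p = 0.000356) and -0.28 in the hippocampus (adjusted p = 1.79e-07). Its reads can come from exons outside the deleted stretch, and from cells that do not derive from Nestin-expressing precursors.

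Several libraries stood apart. The hippocampal library of the cKO-/- female Sample_1160 was left out of the hippocampal values given first, which rest on 17 libraries and on 5 cKO-/- mice. Hippocampal control Sample_1129 held cerebellar transcripts, with 1773 counts of Gabra6, a receptor subunit gene of cerebellar granule cells, against at most 44 in any other hippocampal library. Markers of the choroid plexus, the tissue that secretes cerebrospinal fluid, summed to over 1000 CPM in the cerebella of mutants Sample_933, Sample_936 and Sample_1433, and in the hippocampi of controls Sample_1129 and Sample_1170 and of cKO-/- mice Sample_1219 and Sample_1385. All 6 controls carried animal numbers between Sample_1120 and Sample_1219, whereas 3 of the 6 cKO+/- mice and 4 of the 6 cKO-/- mice had numbers outside that range. What the numbers stand for (litter, date or cage) is not given in the sources used here.

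Oligodendrocytes arise from dividing precursor cells that carry the PDGF receptor alpha and the proteoglycan NG2. On their way to maturity they switch on a transcription program led by OLIG2, SOX10 and MYRF and then build myelin, the stack of membranes that insulates axons. Myelin is rich in cholesterol and in galactolipids, and is held together by a small set of abundant proteins, of which myelin basic protein is one. In the cerebellum most myelin lies in the white matter core of the folia, and in the hippocampus it is concentrated in its fiber tracts.

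The promoters of the genes were searched for motifs of factors known in the lineage. RefSeq start sites of GRCm38.p6 gave promoter entries for 23 of the 31 genes, 30 promoters in all. The 250 bases before each start were searched on both strands for 3 short motifs. CTGGCAC, which is bound by MYRF, occurred in 6 of the 30 promoters, beside 4.19% of all 32851 promoters. ACAAAG, bound by SOX10 and other SOX proteins, occurred in 8 of the 30, beside 16.5% of all promoters. CAGCTG, an E-box bound by OLIG2 and other basic helix-loop-helix proteins, occurred in 2 of the 30, beside 13.0% of all promoters. Some of the 30 promoters overlap because a gene has more than 1 start, as in Mag. The promoters of Opalin, Cnp and Lpar1 are printed because these genes rose in the cerebellum below and because each stretch holds at least 1 match, in capitals. Each runs 5′ to 3′ along the gene's own strand and ends at the base before its start.
Opalin: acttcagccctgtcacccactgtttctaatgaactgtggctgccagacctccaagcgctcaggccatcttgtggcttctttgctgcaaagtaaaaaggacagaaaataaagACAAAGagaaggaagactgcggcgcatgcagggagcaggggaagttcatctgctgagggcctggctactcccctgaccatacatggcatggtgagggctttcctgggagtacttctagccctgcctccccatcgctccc
Cnp: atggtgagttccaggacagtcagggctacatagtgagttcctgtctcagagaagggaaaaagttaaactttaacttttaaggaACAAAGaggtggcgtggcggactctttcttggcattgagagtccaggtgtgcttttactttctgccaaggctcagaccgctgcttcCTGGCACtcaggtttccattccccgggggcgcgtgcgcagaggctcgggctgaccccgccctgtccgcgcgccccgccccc
Lpar1: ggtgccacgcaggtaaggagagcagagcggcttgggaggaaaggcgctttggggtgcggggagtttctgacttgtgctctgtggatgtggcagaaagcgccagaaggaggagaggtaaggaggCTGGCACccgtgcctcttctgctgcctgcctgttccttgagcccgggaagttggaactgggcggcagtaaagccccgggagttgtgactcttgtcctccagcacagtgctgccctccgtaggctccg
The Opalin stretch lies at chr19:41077114-41077363 on the minus strand, with a SOX match 139 to 134 bases before the start. The Cnp stretch lies at chr11:100574689-100574938 on the plus strand, with a SOX match 167 to 162 bases and a MYRF match 81 to 75 bases before the start. The Lpar1 stretch lies at chr4:58553492-58553741 on the minus strand and is 1 of 3 listed for this gene, with a MYRF match 127 to 121 bases before the start. The 2 E-box matches lay in the promoters of Aspa and Hapln2. A match is a stretch of letters and says nothing here of whether a factor bound it.

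In control mice the precursor genes were higher in the hippocampus and the mature genes were split between the tissues. The comparison used 12 libraries, the 2 tissues of 6 animals. All 6 precursor genes and 9 of the 25 mature genes were higher in the hippocampus, 15 of 31, beside 34% of the 13587 genes tested. Another 11, all of them mature, were higher in the cerebellum, beside 36.2% of the genes tested. The median difference on the log2 scale was 1.25 for the precursor genes and -0.01 for the mature genes, beside -0.03 for all genes tested. With the animal as a replicate block, 26 of the 31 were called again, beside 9731 of the 13587 genes tested.

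Among the precursor genes, Gpr17, a receptor of committed precursors, was at 84.5 CPM ± 14.3 (SD, n = 6) in the hippocampus and 26.4 ± 3.88 (n = 6) in the cerebellum, 3.19 times as high (adjusted p = 1.62e-10, edgeR's quasi-likelihood test). Cspg4, which encodes NG2, was at 29.8 ± 0.826 and 10.8 ± 0.962 CPM, and Pdgfra at 62.1 ± 4.39 and 23.0 ± 2.36 CPM. The lowest hippocampal control exceeded the highest cerebellar control for all 3 genes. The transcription factor genes Olig1 and Olig2 differed by 1.07 and 0.98 on the log2 scale. Bcas1, which marks early myelinating cells, differed least of the 6, by 0.27 ± 0.09 (SE).

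The mature genes with the widest gaps lay on both sides. Cntn2, a cell adhesion gene of the axon-myelin contact beside the node that granule neurons also express, was at 454 CPM ± 41.9 in the cerebellum and 144 ± 22.9 in the hippocampus, 3.15 times as high. Trf, which encodes transferrin, was 2.03 times, Gjc3, a connexin gene, 1.80 times and Lpar1, a receptor gene for lysophosphatidic acid, 1.74 times as high in the cerebellum. Opalin, a transmembrane protein of myelin, was the mature gene with the largest hippocampal excess, at 12.5 CPM ± 2.56 against 6.47 ± 2.28. Mbp, Mog, Mag, Qdpr and Fa2h did not pass the test in either direction. The plot of tissue differences shows this order.

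**Figure D1:**
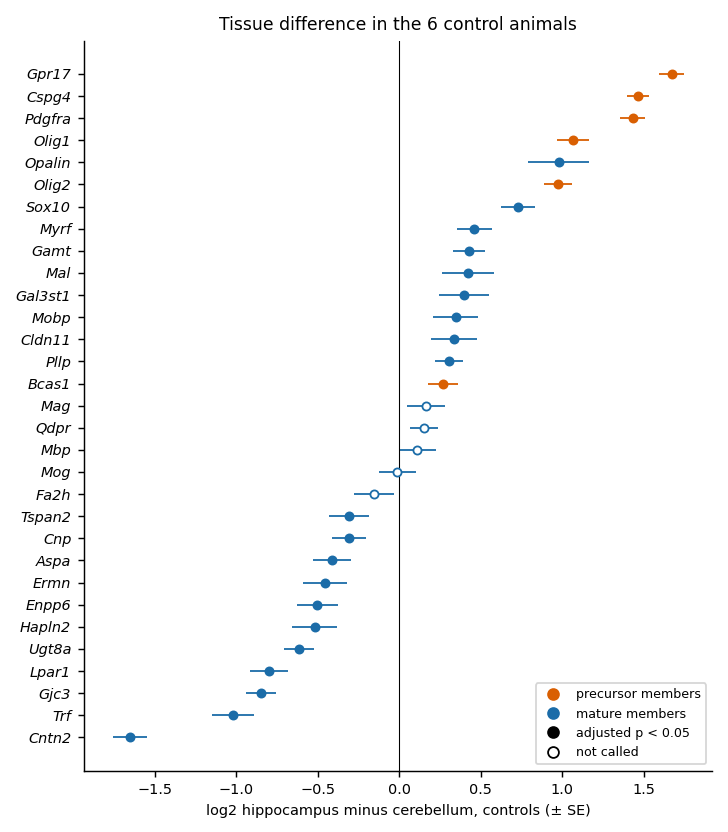
Difference in level between hippocampus and cerebellum for each of the 31 genes in the 6 control animals, on the log2 scale with its standard error; filled points passed an adjusted p of 0.05. The 6 precursor genes (orange) lie on the hippocampal side, from 0.27 for Bcas1 to 1.67 for Gpr17, and Cntn2 lies at the other end at -1.65.

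Levels can be ordered between genes only per length of exon. On that scale Mbp led in both tissues, at 332 CPM per kilobase ± 55.3 in the cerebellum and 357 ± 74.1 in the hippocampus, above every library of the next gene in both. Trf at 203 ± 21.9 followed in the cerebellum, and Cnp at 152 ± 16.5 and Qdpr at 119 ± 18.4 came next and overlapped. In the hippocampus, Qdpr at 132 ± 15.6, Cnp at 123 ± 28.3 and Trf at 100.1 ± 21.9 each overlapped their neighbor. Cspg4 at 1.34 ± 0.119 was lowest in the cerebellum. Enpp6, a choline phosphodiesterase gene of newly formed oligodendrocytes, was lowest in the hippocampus at 1.60 ± 0.338. From rank 5 to rank 28 in the cerebellum, every gene but Cntn2 overlapped the next in order.

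The effect of losing Pogz was measured as the log2 change per allele lost, in a model with sex, as in the study's own design. In the cerebellum 9 of the 31 genes rose, all of them mature, and none fell. Over all 14027 genes tested, 13.7% were called and 7.11% rose. Of the 6 precursor genes 0 passed, and 4 of the 6 had an unadjusted p under 0.05. Of the 31 members 22 did, beside 4233 of the 14027 genes tested. The change was positive in 27 of the 31, with a median of 0.22 for the mature and 0.19 for the precursor genes, beside 0.00 for all genes tested. In tissue RNA, fewer cells of a type and less RNA per cell cannot be told apart, and the same holds for more of either.

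Lpar1 had the smallest p among the members. In the cerebellum it ranged from 39.7 to 51.2 CPM with a median of 46.9 in the 6 controls, from 41.3 to 67.1 with a median of 53.9 in the 6 cKO+/- mice, and from 53.0 to 86.8 with a median of 73.0 in the 6 homozygous mutants. Every cKO-/- library was above every control. It rose by 0.32 ± 0.06 (SE) on the log2 scale per allele lost, 1.25-fold (adjusted p = 0.0027, edgeR's quasi-likelihood test with Benjamini-Hochberg adjustment, as for each adjusted p here).

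Opalin had the largest change. Its levels ran from 2.76 to 9.93 CPM with a median of 6.63 in controls, from 5.49 to 14.4 with a median of 8.80 in cKO+/- mice, and from 10.04 to 18.1 with a median of 13.1 in cKO-/- mice. Again all cKO-/- libraries lay above all controls. The rise was 0.52 ± 0.11 on the log2 scale per allele lost, 1.43-fold (adjusted p = 0.00697). Lpar1 and Opalin were the only members so separated in the cerebellum, 2 of 31, and over all genes tested 2.67% had every cKO-/- library above every control.

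Another 3 genes of the myelin membrane and of the oligodendrocyte cytoskeleton rose with partial overlap. Pllp encodes plasmolipin, a tetraspan protein of myelin, and ranged from 30.6 to 44.6 CPM (median 36.8) in controls, 30.9 to 67.3 (41.9) in cKO+/- and 39.1 to 78.2 (54.2) in cKO-/- mice. Ermn, which encodes the actin-binding protein ermin, ranged from 62.5 to 88.2 CPM (71.9), 66.4 to 144 (103) and 81.6 to 173 (113). In both genes the lowest cKO-/- library lay among the controls while the cKO-/- median was above every control. They rose by 0.33 ± 0.08 (adjusted p = 0.0103) and 0.33 ± 0.08 (adjusted p = 0.0164) per allele lost. Cnp, the cyclic nucleotide phosphodiesterase of the myelin inner membrane, ranged from 352 to 457 CPM (431), 385 to 602 (470.1) and 395 to 639 (543), and rose by 0.19 ± 0.06 (adjusted p = 0.0349).

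The other 3 of the 8 with the smallest p are enzymes. Aspa, the enzyme that splits N-acetylaspartate and so frees acetate for myelin lipids, ranged from 15.4 to 21.9 CPM (16.3) in controls, 15.5 to 36.2 (20.8) in cKO+/- and 20.9 to 34.5 (26.5) in cKO-/- mice, and rose by 0.31 ± 0.08 (adjusted p = 0.022). Qdpr, which recycles tetrahydrobiopterin, ranged from 148 to 216 CPM (162), 163 to 260.2 (198) and 168 to 292 (224), and rose by 0.23 ± 0.06 (adjusted p = 0.0268). Ugt8a, which makes the myelin lipid galactosylceramide, ranged from 64.8 to 81.4 CPM (73.2), 66.4 to 134 (98.6) and 71.8 to 165 (113), and rose by 0.28 ± 0.08 (adjusted p = 0.0307). In these 3 genes all cKO-/- medians were above all controls, and the lowest mutant libraries were within the control range. Gjc3 was the ninth called gene, with a rise of 0.15 ± 0.04 (adjusted p = 0.0371).

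Mbp, Mog and Mag were not called. Mbp ranged from 1885 to 2891 CPM (median 2287) in controls, 1909.6 to 4158 (2689) in cKO+/- and 1839 to 4597 (2858) in cKO-/- mice, with a change of 0.21 ± 0.09 (adjusted p = 0.129). Mog, an adhesion protein of the outer myelin surface, ranged from 45.4 to 64.1 CPM (59.9), 46.4 to 97.4 (68.6) and 51.9 to 112 (76.1), and Mag, a glycoprotein at the axon contact, from 120.2 to 170.2 CPM (164), 129 to 339 (186) and 155 to 305 (204). Their changes were 0.24 ± 0.08 (adjusted p = 0.0614) and 0.25 ± 0.10 (adjusted p = 0.0942). The lowest mutants of these 3 genes were within or below the control range and the highest were above it. Among the other mature genes that were not called, the changes ran from -0.12 for Cntn2 to 0.28 for Enpp6; Cntn2, Hapln2 and Gamt were the 3 negative ones.

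**Figure D2:**
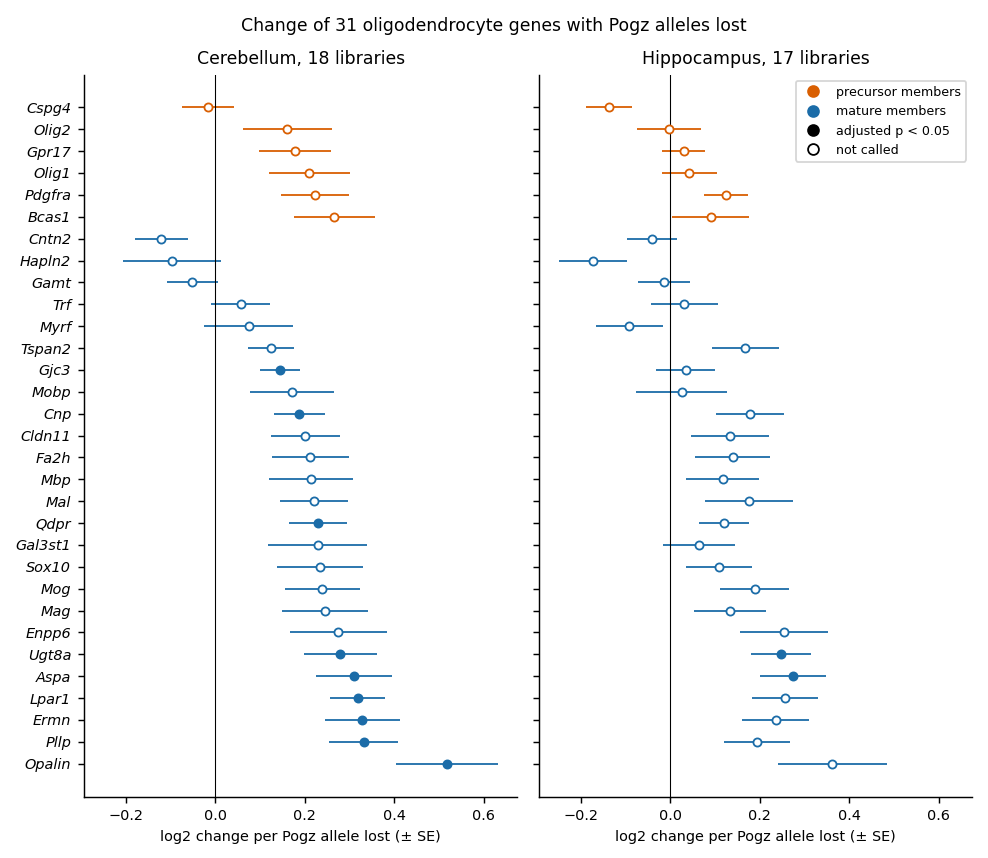
Change of each gene per Pogz allele lost, on the log2 scale with its standard error, in 18 cerebellar (left) and 17 hippocampal libraries (right); filled points passed an adjusted p of 0.05. In the cerebellum 9 mature genes (blue) are filled, led by Opalin at 0.52, and in the hippocampus Aspa and Ugt8a are.

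The precursor genes of the cerebellum showed a similar size of change with none called. Pdgfra, the growth factor receptor that keeps precursors dividing, ranged from 20.3 to 26.5 CPM (median 24.1) in controls, 22.6 to 41.6 (30.0) in cKO+/- and 22.1 to 39.9 (34.0) in cKO-/- mice, with a change of 0.22 ± 0.08 (adjusted p = 0.0565). Bcas1 ranged from 98.0 to 132 CPM (118), 108 to 215 (147) and 110.1 to 247 (149), with a change of 0.27 ± 0.09 (adjusted p = 0.0543). Both sat just above the threshold, with some mutants at control level and others well above it.

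Olig1 ranged from 47.4 to 75.8 CPM (61.3) in controls, 61.0 to 108 (81.3) in cKO+/- and 49.8 to 109.8 (78.5) in cKO-/- mice. Olig2 ranged from 13.7 to 16.0 CPM (14.8), 16.8 to 29.6 (21.6) and 13.1 to 28.2 (16.7). Gpr17 ranged from 20.8 to 30.2 CPM (28.7), 24.5 to 48.6 (38.9) and 24.4 to 42.4 (35.1). For Olig2 all 6 cKO+/- libraries were above all controls while the cKO-/- libraries overlapped them. The share of all genes so separated in cKO+/- mice was not counted. In cKO+/- against control, Olig2 differed by 0.58 ± 0.16 and was not called (adjusted p = 0.17). For Olig1, Olig2 and Gpr17 the changes per allele lost were 0.21 ± 0.09, 0.16 ± 0.10 and 0.18 ± 0.08 (adjusted p = 0.124, 0.286 and 0.141). Cspg4 ranged from 10.1 to 12.7 CPM (10.8), 10.6 to 14.3 (12.3) and 9.18 to 14.7 (10.6), with a change of -0.02 ± 0.06; it was the member that moved least.

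Taken against control separately, the genotypes gave different counts on the same controls. In cKO+/- cerebella 0 of 31 were called, beside 0.342% of all genes tested, and 16 had an unadjusted p under 0.05, beside 1631 of the 14027. In cKO-/- cerebella 9 rose and 0 fell, beside 12.7% called of all genes tested, with differences from control between 0.29 ± 0.09 for Gjc3 and 1.03 ± 0.23 for Opalin on the log2 scale. On the scale of mean log2 CPM, the cKO+/- level lay between those of the other 2 genotypes for 22 of the 25 mature genes, and above both for 4 of the 6 precursor genes. The median difference from control among precursor genes was 0.43 in cKO+/- and 0.39 in cKO-/-, and among mature genes 0.31 and 0.44.

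The members varied more between mutants than between controls in the cerebellum. The median coefficient of variation over the 25 mature genes was 13.6% in controls, 31.5% in heterozygous and 24.0% in homozygous mutants, beside 10.2%, 7.96% and 11.6% over all tested genes with a mean of at least 10 CPM. The precursor genes gave 9.97%, 22.8% and 25.9%. The same few libraries were high across the list. The summed level of the 25 mature genes was 9170 CPM in cKO-/- mouse Sample_936, 8508 in cKO+/- mouse Sample_1433, 7873 in cKO+/- mouse Sample_933 and 7673 in cKO-/- mouse Sample_1385, against 4626 to 6014 in controls and 4534 to 6542 in the other 8 mutants. In the cerebellum these 4 animals held at least 3 of the 4 highest values in 21 of the 25 mature and in all 6 precursor genes, as the map of libraries shows. In the hippocampus the summed level of the mature genes was 5672 CPM in Sample_936 and 7032 in Sample_1385. It was 4418 in Sample_933 and 3645 in Sample_1433, against 3569 to 5815 in hippocampal controls.

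**Figure D3:**
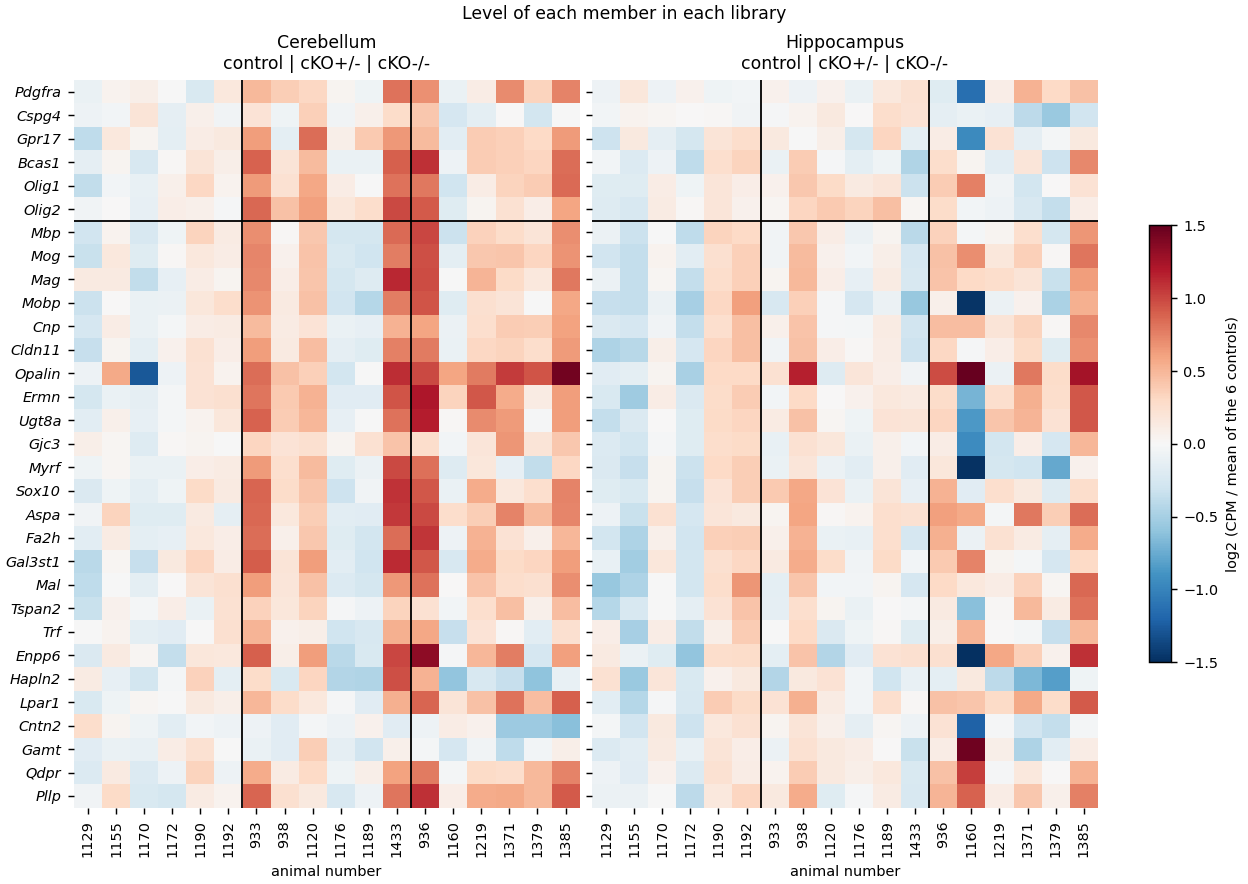
Level of each gene in each library as the log2 ratio to the mean of the 6 controls, in cerebellum (left) and hippocampus (right), with precursor genes above and mature genes below the horizontal line; the color scale ends at 1.5 in both directions. In the cerebellum the columns of animals Sample_933, Sample_1433, Sample_936 and Sample_1385 are high for most genes, and in the hippocampus the column of animal Sample_1160 departs from the others in both directions.

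All 4 animals had numbers outside Sample_1120 to Sample_1219. Among the mature genes, the median ratio to the control mean was 1.47 in the 3 cKO+/- mice outside the range and 1.02 in the 3 within it, and 1.47 in the 4 cKO-/- mice outside and 1.11 in the 2 within. For Lpar1 the means were 46.5 CPM ± 4.08 (n = 6) in controls, 46.3 ± 5.23 (n = 3) and 57.9 ± 6.94 (n = 2) in cKO+/- and cKO-/- mice within the range, and 63.0 ± 5.96 (n = 3) and 79.4 ± 10.3 (n = 4) in those outside. For Opalin they were 6.67 ± 2.34, then 6.91 ± 1.55 and 10.8 ± 1.02 within, and 11.8 ± 2.69 and 14.5 ± 2.44 outside. For both genes, the members with the smallest p and the largest change, the cKO-/- mean exceeded the cKO+/- mean on either side of the range. The same held for the called genes Pllp, Cnp, Aspa and Qdpr. Outside the range the order was reversed for Ermn (124 CPM in cKO+/- and 120.2 in cKO-/- mice) and Ugt8a (119 and 116). Within the range it was reversed for Gjc3 (100.2 CPM in cKO+/- and 93.8 in cKO-/- mice). These differences between mutants were not tested. With a covariate for animals outside the range, 0 of the 31 genes were called, beside 2.2% of all genes tested, 4 had an unadjusted p under 0.05 beside 2068 of the 14027, and the median change was 0.07 for mature and 0.03 for precursor genes. Opalin then changed by 0.33 (adjusted p = 0.181) and Lpar1 by 0.18 (adjusted p = 0.104). The animals within the range alone (6 controls, 3 cKO+/- and 2 cKO-/- mice) gave 0 calls and medians of 0.08 and 0.03. The number of all genes called in this smaller fit was not counted. Since no control lies outside the range, the part of the animal numbers in the mutants outside it cannot be told apart from genotype. The mean log2 level of the mature genes exceeded that of the precursor genes by 1.23 ± 0.09 (SD) in controls, 1.12 ± 0.12 in cKO+/- and 1.28 ± 0.11 in cKO-/- cerebella (n = 6 each), and the 3 genotypes overlapped.

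**Figure D4:**
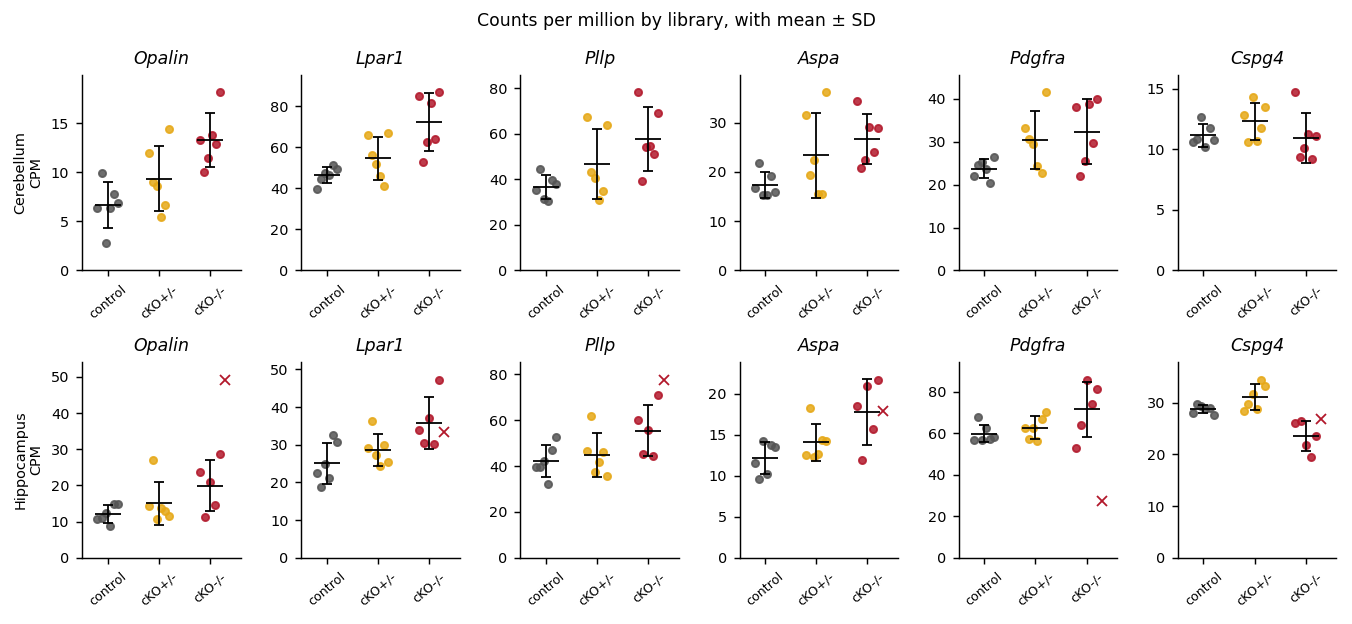
CPM of 4 mature genes (Opalin, Lpar1, Pllp and Aspa) and 2 precursor genes (Pdgfra and Cspg4) in each library, in cerebellum (top) and hippocampus (bottom), with the mean and SD of each genotype; the cross is the hippocampal library of animal Sample_1160, which is not in the mean. Cerebellar Opalin and Lpar1 are higher in every cKO-/- library than in any control, and hippocampal Cspg4 is lower in each of the cKO-/- libraries. How many of all genes are lower in this way was not counted.

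Markers of other cells also differed between cerebellar libraries, only some of them those that were high for the members. Choroid plexus markers summed to between 2393 and 3212 CPM in cerebella Sample_933, Sample_936 and Sample_1433 and to at most 80.9 CPM in the other 15. These 3 cerebella also had the 3 highest sums of the mature genes. Sample_1385, the next highest for those genes, held 35.8 CPM of choroid plexus markers. Without those 3 libraries 7 of 31 genes were called, beside 10.6% of the 14027 genes tested, with Opalin and Lpar1 among the 7 and Cnp and Qdpr not. Markers of cerebellar granule cells, the most numerous neurons of this tissue, summed to between 2956 and 3867 CPM in mutants Sample_1371, Sample_1379, Sample_1385 and Sample_1433 and to between 4813 and 6247 in the other 14, and 0 of 6 were called. For the marker counts, as for the members, 13.7% of all cerebellar genes were called and 7.11% rose. Markers of microglia rose in 3 of 10, of meningeal fibroblasts in 5 of 6 and of astrocytes in 4 of 10; the sums of microglial markers were 150 to 189 CPM in mutants within the range, 202 to 282 in those outside and 154 to 167 in controls. Of the 2 brainstem neuron markers tested 1 rose, and of 8 endothelial markers 1 fell. Markers of the choroid plexus (6 tested), ependyma (3), Purkinje cells (6), thalamus and striatum (6) and neurons at large (6) had 0 called, and 2 of 3 markers of hippocampal neurons rose. Of 7 markers of Schwann cells, the myelinating cells of peripheral nerve, 4 were tested and 0 were called. The part of these cells in the change of the members was not tested.

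In the hippocampus fewer members passed. Of the 31 genes 2 rose and 0 fell, beside 4.44% called and 2.09% raised of the 14339 genes tested. The change was positive in 25 of 31, with a median of 0.13 for mature and 0.04 for precursor genes, beside 0.00 for all genes tested. An unadjusted p under 0.05 was found for 14 members and for 2883 of the 14339 genes. Aspa ranged from 9.62 to 14.3 CPM (median 12.5) in controls and 12.3 to 18.3 (13.5) in cKO+/- mice, and was at 18.6, 11.9, 20.95, 15.7 and 21.8 in cKO-/- mice. Ugt8a ranged from 34.6 to 55.6 CPM (42.0) and 42.3 to 60.1 (49.6), and was at 55.7, 59.3, 63.0, 51.7 and 84.4 in cKO-/- mice. In both genes 1 of the 5 cKO-/- libraries lay within the control range and the other 4 above it. They rose by 0.27 ± 0.07 (adjusted p = 0.0413) and 0.25 ± 0.07 (adjusted p = 0.0434). Markers of endothelial cells rose in 4 of 8 in the hippocampus, of meningeal fibroblasts in 1 of 6, of astrocytes in 1 of 10 and of microglia in 0 of 10. Markers of hippocampal pyramidal and granule neurons fell in 2 of 6, and of thalamus and striatum neurons in 1 of 7. Those of choroid plexus (8 tested), ependyma (4), Schwann cells (4), brainstem (2), cerebellar granule cells (3), Purkinje cells (5) and neurons at large (6) had 0 called. The part of these cells in the change of the members was not tested. Neither call of a member held over all 18 libraries (adjusted p = 0.0645 and 0.348), where 0 of 31 passed beside 1.72% of all genes tested. There 8 members had an unadjusted p under 0.05, beside 2398 of the 14339 genes. Nor did the calls hold with the covariate for animal numbers, where 0 of 31 passed beside 0.474%, and 0 had an unadjusted p under 0.05 beside 971 of the 14339. Choroid plexus markers exceeded 1000 CPM in 4 hippocampal libraries, and without these 0 of 31 were called, beside 1.16% of all genes tested, and 4 had an unadjusted p under 0.05, beside 2083 of the 14339. Leaving out any 1 of 9 animals ended the call of Aspa and any 1 of 11 that of Ugt8a; without Sample_1385, which had the highest value of 18 of the 25 mature genes, the adjusted p were 0.127 and 0.134.

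Of the 8 genes with the smallest p in the cerebellum, the other 6 did not pass in the hippocampus, and their changes there were positive. Hippocampal Opalin ranged from 8.65 to 14.9 CPM (median 11.7) in controls and 10.6 to 27.1 (13.3) in cKO+/- mice, and was at 23.8, 11.4, 20.95, 14.6 and 28.8 in cKO-/- mice, a change of 0.36 ± 0.12 (adjusted p = 0.101). Lpar1 ranged from 18.7 to 32.6 CPM (23.6) and 24.3 to 36.3 (28.2), and was at 33.8, 30.5, 37.1, 30.2 and 47.3, a change of 0.26 ± 0.07 (adjusted p = 0.0543). Of the cKO-/- mice, 3 of 5 were above all controls for both genes. Ermn changed by 0.24 ± 0.08 (adjusted p = 0.0854), Pllp by 0.19 ± 0.07, Cnp by 0.18 ± 0.08 and Qdpr by 0.12 ± 0.06 (adjusted p = 0.154, 0.197 and 0.231). Mbp, Mog and Mag changed by 0.12 ± 0.08, 0.19 ± 0.08 and 0.13 ± 0.08 (adjusted p = 0.439, 0.174 and 0.37). No member had every cKO-/- library above every control, beside 1.53% of all genes tested.

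Among the precursor genes of the hippocampus, Cspg4 went the other way. It ranged from 27.7 to 29.7 CPM (median 28.8) in controls and from 28.4 to 34.4 (30.7) in cKO+/- mice, and was at 26.1, 26.4, 21.8, 19.5 and 23.6 in cKO-/- mice. Each cKO-/- value was below each control and the cKO+/- median was above the control median. How many of all genes had every cKO-/- library below every control was not counted, so this separation has no background share. Per allele lost the change was -0.14 ± 0.05 (adjusted p = 0.143). With the genotypes as separate groups, Cspg4 fell by 0.30 on the log2 scale in cKO-/- mice (SE 0.07, adjusted p = 0.0191). In that comparison 3 of the 31 members were called (Aspa and Ugt8a higher, Cspg4 lower), beside 4.87% of all genes tested, and in cKO+/- hippocampi 0 were, beside 0.0349%; the unadjusted p was under 0.05 for 1 member in the latter, beside 1440 of the 14339 genes. Over all 18 libraries 0 of 31 were called in cKO-/- mice.

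Pdgfra ranged from 56.7 to 67.6 CPM (median 57.8) in hippocampal controls and 56.0 to 70.3 (62.5) in cKO+/- mice, and was at 52.9, 64.0, 85.8, 73.9 and 81.1 in cKO-/- mice, with 3 of 5 above all controls and 1 below them. Its change was 0.12 ± 0.05 (adjusted p = 0.169). Gpr17 (0.03), Bcas1 (0.09), Olig1 (0.04) and Olig2 (-0.0037) had changes close to or under their standard errors of 0.05 to 0.09. Their control ranges were 65.5 to 97.7, 100.04 to 165, 105 to 135 and 23.2 to 31.01 CPM, and the cKO-/- ranges were 74.0 to 94.7, 106 to 216, 98.1 to 154 and 21.4 to 33.2 CPM. In all 4 genes the ranges overlapped. The mean log2 level of the mature genes differed from that of the precursor genes by -0.05 ± 0.19 (SD, n = 6) in hippocampal controls, -0.05 ± 0.14 (n = 6) in cKO+/- and 0.17 ± 0.13 (n = 5) in cKO-/- mice, with overlap.

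The difference in the allele effect between the tissues was tested itself, in 1 fit of 35 libraries. Of the 31 members 0 differed, beside 1.49% of 13587 genes, and 0 had an unadjusted p under 0.05, beside 1851 of the 13587. With the animal as a replicate block 0 were called, beside 338 of all genes, and 5 had an unadjusted p under 0.05, beside 2603. The signed difference, hippocampus minus cerebellum, was negative for 28 of 31, with a median of -0.16 for precursor and -0.08 for mature genes. For Opalin the difference was -0.16 ± 0.17 and for Lpar1 -0.07 ± 0.10. The sex difference of the allele effect was called for 0 of 31 members in either tissue, beside 0% of all genes tested in both, where 557 cerebellar and 770 hippocampal genes had an unadjusted p under 0.05; 0 cerebellar and 2 hippocampal members did, and 27 of 31 hippocampal differences were negative as male minus female.

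The hippocampal library of animal Sample_1160 differed from the other cKO-/- libraries by gene length. Opalin was at 49.2 CPM there, against 11.4 to 28.8 in the other 5 cKO-/- mice, Gamt at 30.7 against 8.11 to 12.1 and Qdpr at 364 against 175 to 253. Pdgfra was at 27.4 against 52.9 to 85.8 and Cntn2 at 60.2 against 108 to 161. Of the 10 members with the shortest exon length, 892 to 2171 bases, 7 were above the range of the other 5 and 0 below. Of the 10 with the longest, 3599 to 9535 bases, 7 were below and 1, Cspg4, was above. Across the 31 genes, which are not independent, Spearman's rho between exon length and the ratio to the other cKO-/- libraries was -0.733, and in the cerebellum of the same animal it was 0.0673. The summed level of the mature genes, 4678 CPM, lay within the range of 3930 to 7032 of the other 5.

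**Figure D5:**
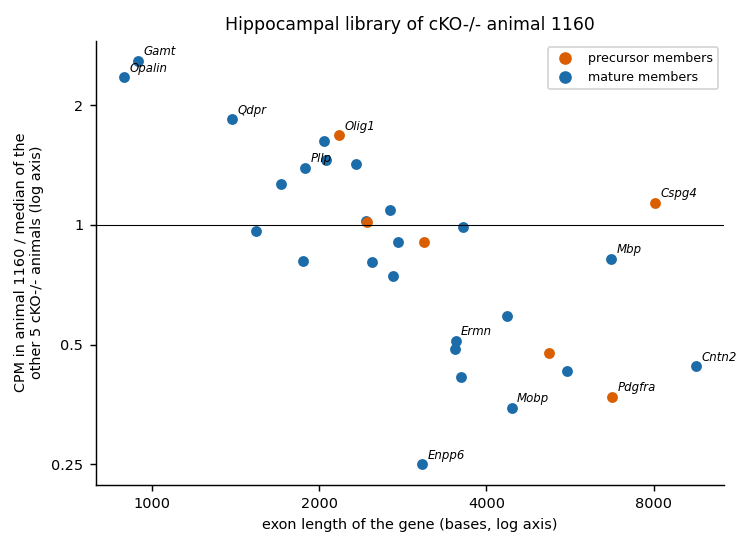
Ratio of each gene's level in the hippocampal library of animal Sample_1160 to the median of the other 5 cKO-/- animals, against the gene's exon length in bases, both on log axes. Short genes such as Gamt and Opalin lie at 2.58 and 2.35 and long genes such as Pdgfra and Cntn2 at 0.370 and 0.442, with Enpp6 lowest at 0.25.

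Further genes of the lineage were counted the same way, against 13.7% called and 7.11% raised over all cerebellar genes and 4.44% and 2.09% over all hippocampal genes. Of 30 further genes of mature oligodendrocytes, 5 rose and 0 fell in the cerebellum, with a median of 0.16. The 2 with the smallest p were Il33, a nuclear cytokine gene that oligodendrocytes express in the mouse (0.65 ± 0.11, adjusted p = 0.00106), and Adamts4, a protease gene (0.24 ± 0.07, adjusted p = 0.022). In the hippocampus Il33 was the only one called of 29 tested, with a rise of 0.42 ± 0.05 (adjusted p = 0.000171). Il33 stayed called with the covariate for animal numbers, at 0.41 in the cerebellum and 0.31 in the hippocampus (adjusted p = 0.0131 and 0.0361).

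Of 20 further precursor genes, 3 rose and 1 fell in the cerebellum and 2 rose in the hippocampus, against the same shares of all genes. Mmp15, a membrane metalloproteinase gene, rose in both (0.42 ± 0.07, adjusted p = 0.00103, in the cerebellum and 0.28 ± 0.06, adjusted p = 0.0105, in the hippocampus). Bmp4, a signal that holds back oligodendrocyte differentiation, rose in the cerebellum (0.31 ± 0.10, adjusted p = 0.0443) and Emid1 fell there by 0.21 on the log2 scale (adjusted p = 0.0199). Xylt1, which starts the sugar chains of proteoglycans, rose in the hippocampus (0.21 ± 0.06, adjusted p = 0.0397). Of 17 transcription regulators of the lineage 0 were called in either tissue, with medians of 0.05 and -0.01; Sox10 and Myrf among the members were not called either (0.23 and 0.07 in the cerebellum).

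Cholesterol, which myelin needs in quantity, is made in all cells by a shared set of enzymes. Of 22 genes of its synthesis, 10 rose and 1 fell in the cerebellum, where 7.11% of all genes rose, and 2 rose in the hippocampus, where 2.09% did. Sqle and Hmgcs1, for squalene epoxidase and an early synthase of the pathway, rose by 0.25 ± 0.05 each in the cerebellum (adjusted p = 0.00336 and 0.00412), and Tm7sf2, a sterol reductase gene, fell by 0.24 (adjusted p = 0.0192). In the hippocampus Sqle (0.15 ± 0.04, adjusted p = 0.0264) and Cyp51, a sterol demethylase gene (0.18 ± 0.05, adjusted p = 0.0305), rose. With the covariate for animal numbers 0 of the 22 were called in either tissue, and their cerebellar median was 0.09, against 0.10 without it. Of 16 tested genes of axon-glia contact and signaling, Igf1, a growth factor, rose in the cerebellum (0.34 ± 0.07, adjusted p = 0.00411) and 0 were called in the hippocampus.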

How the data were processed

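Poly(A) RNA libraries of both tissues of 18 mice were made, aligned and counted per gene by the authors; the submitters' processing notes name STAR 250a and mm9, but the gene positions in the files are those of GRCm38. The authors deposited whole-number counts without normalization; the counting options, strand use and annotation are not given in the sources used here. Genes overlapping on opposite strands, and genes with near copies, therefore have uncertain counts. Groups, sexes and animal numbers came from the labels. Each tissue of an animal is 1 sample, so spread is between animals.

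CPM was scaled with TMM factors. Genes with more than 1 CPM in at least 6 of 18 libraries were tested with edgeR 4.0.16 (R 4.3.3) by the quasi-likelihood F-test (legacy form) with sex and alleles lost, and Benjamini-Hochberg adjustment at 0.05 over all genes tested. Genotype as a factor, sex and tissue interactions, and the tissue difference in controls were fitted likewise. The hippocampal fit left out animal Sample_1160. The study's reporting summary mentions an excluded outlier RNA sample without naming it or its tissue, and earlier results on these data match this library. Without it 636 hippocampal genes were called, the number the study gives, and over all 18 libraries 246 were. The filter and factors used all 18. The same animal gave both tissues: over all genes, deviations from the group means had a median correlation of 0.194 (from -0.159 to 0.43, and above 0.1 in 14 of 17 animals). The mean deviation of the mature members had the same sign in both tissues in 9 of 17 animals. Alternatives were DESeq2 1.42.0, relative log expression factors, no filter, the bias-adjusted fit, no sex term, the range of animal numbers, the full set of 18 hippocampal libraries and the omission of each animal in turn; leaving out libraries with choroid plexus RNA and counting unadjusted p were added after the data were seen. The fits were tested on simulated data. Members, lists and tests were chosen with earlier results of these data known. Values by library are given for the precursor genes, for the called genes (in the cerebellum the 8 mature ones with the smallest p) and for Mbp, Mog, Mag and Cnp; of other lists, up to 2 called genes per direction and tissue are named. Counting error was not separated from the spread between animals. Promoters came from RefSeq, GRCm38.p6, without chromosome 18.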

Additional observations from a re-analysis of the deposited data

Results flagged for a closer look

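In 114 groups of 5 or 6 libraries (the members given by library and the summed levels of both classes, by tissue and genotype), 3 had a highest or lowest value far from the rest, with a gap of over 0.625 of the range of their 6 libraries; chance alone gives about 1 in 20 such groups. Hippocampal Opalin was at 27.1 CPM in cKO+/- mouse Sample_938, with the next value at 14.2 CPM and the lowest at 10.6 CPM. Hippocampal Aspa was at 18.3 CPM in the same mouse, with the next at 14.4 CPM and the lowest at 12.3 CPM. Cerebellar Cspg4 was at 14.7 CPM in cKO-/- mouse Sample_936, with the next at 11.2 CPM and the lowest at 9.18 CPM.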

How the results depend on the processing

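The number of cerebellar genes called, 9 of 31, was the same with relative log expression factors, without the filter, with the bias-adjusted fit and without the sex term, was 7 without the libraries holding choroid plexus RNA, was 14 with DESeq2, was 0 both with the covariate for animal numbers and among animals within the range alone, and was 22 at an unadjusted p under 0.05. Leaving out 1 animal gave 4 (without Sample_1385) to 15 (without Sample_1160), and every other omission stayed within 1.5 times 9. The hippocampal count, 2, was 5 with DESeq2, 14 at an unadjusted p, 0 with the covariate, within the range, over all 18 libraries and without the libraries with choroid plexus RNA, and 0 to 4 without 1 animal (0 without Sample_933, Sample_1129, Sample_1155, Sample_1172, Sample_1189, Sample_1371, Sample_1379 or Sample_1385, 1 without Sample_1170 or Sample_1433, 4 without Sample_1192). The count in cKO-/- against control, 9 in the cerebellum, was 4 without Sample_1385, 5 without Sample_936 or Sample_1190, 15 without Sample_1189 and 17 without Sample_1160. In the hippocampus, 3, it was 0 without Sample_1371 or Sample_1379, 1 without Sample_933, Sample_1129, Sample_1155, Sample_1172, Sample_1189 or Sample_1385, 5 without Sample_938 or Sample_1219 and 6 without Sample_936, and 0 over all 18 libraries. The cause of these shifts was not tested, and the restricted fits also hold fewer samples. Except where a share of all genes is given above, the number of all genes called in these runs was not counted. For DESeq2, the range alone and the omission of 1 animal, the member counts therefore cannot be set against all genes.

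Lpar1, Opalin, Pllp and Ermn stayed called in the cerebellum in each of 18 fits without 1 animal. Aspa lost its call without Sample_1385 (adjusted p = 0.064); Qdpr without Sample_936, Sample_1129, Sample_1192 or Sample_1385 (highest 0.0822); Ugt8a without Sample_936, Sample_1129, Sample_1155, Sample_1190, Sample_1192 or Sample_1385 (highest 0.0842); and Cnp without Sample_936, Sample_1129, Sample_1155, Sample_1172, Sample_1190, Sample_1379 or Sample_1385 (highest 0.105). Bcas1 passed without any of 6 animals and Pdgfra without any of 3.

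Some changes that were not called turned sign. With the covariate for animal numbers, Olig2 was at -0.025 in the cerebellum and 0.045 in the hippocampus. Within the range alone, hippocampal Cspg4 was at 0.0099, Bcas1 at -0.092, Olig2 at 0.13 and Opalin at -0.029, in a fit with 1 cKO-/- mouse. Hippocampal Gpr17 was at -0.027 over all 18 libraries and -0.041 without those with choroid plexus RNA. Without 1 animal, cerebellar Cspg4 ran from -0.054 to 0.0081, and hippocampal Bcas1 from -0.0058 to 0.14, Olig1 from -0.0014 to 0.078 and Olig2 from -0.038 to 0.048. The medians of both classes kept their sign in every alternative run. The replicate block of the paired tissues left 0 of 31 called for the difference in allele effect, beside 338 of 13587 genes. It left 26 for the control tissues, beside 9731 of 13587. Without the block, the count for the control tissues ran from 20 to 27 when 1 animal was left out.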
